A study of Mus musculus with 19 samples.

Results

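RNA polymerase II subunits *Polr2a* to *Polr2j* were examined in the brain of SCA17 mice (knock-in, KI) and of wild-type mice (WT). The members were the rows of the count table whose Ensembl identifier carries one of these 10 gene names in the GENCODE M21 annotation. All 10 were found among 41128 genes, and all 10 were among the 16841 genes with enough counts to be tested. The set was selected on gene names and on the KI against WT counts of these same libraries, in which *Polr2a* was already known to be higher in KI mice. The KI against WT values of the members are therefore a description, and where a call or a p-value of that contrast is named for a member it describes the same counts and is no independent test.

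The KI mice were germline SCA17 knock-in animals, in which the TATA-binding protein gene *Tbp* carries an expanded CAG repeat that lengthens a polyglutamine tract. They were C57BL/6 mice aged 3 months and came from heterozygous floxed *Tbp* mice mated to EIIa-Cre transgenic mice, in which Cre acts in the early embryo, and then to WT animals. The WT mice were littermates of the same age and strain. RNA from whole tissue was sequenced from the cerebellum (4 KI and 3 WT libraries), the striatum (3 and 3) and the prefrontal cortex (3 and 3). Whether KI mice still carried the Cre transgene is not given in the sources used here.

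RNA polymerase II transcribes protein-coding genes and many non-coding RNA genes. RPB1, the largest subunit and product of *Polr2a*, forms the catalytic core together with RPB2, the product of *Polr2b*. RPB1 also carries the C-terminal domain, a tail of repeated heptapeptides whose phosphorylation accompanies initiation, elongation and RNA processing. RPB3 and RPB11, encoded by *Polr2c* and *Polr2j*, form the heterodimer on which the enzyme is assembled. RPB4 and RPB7, encoded by *Polr2d* and *Polr2g*, form a stalk that can dissociate. RPB5, RPB6 and RPB8, encoded by *Polr2e*, *Polr2f* and *Polr2h*, are shared with RNA polymerases I and III, and RPB9, encoded by *Polr2i*, contributes to start site selection and fidelity. TBP, the protein altered in the KI mice, takes part in recruiting the polymerase to promoters by binding TATA-containing DNA or as part of larger complexes.

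*Polr2a* (ENSMUSG00000005198) lies on the minus strand of chromosome 11, from 69733997 to 69758637 in GRCm38, and no other annotated gene overlaps it. The table of RefSeq promoters used here (GRCm38.p6, 250 bases before and 50 after each start) held 8 of the 10 members in 9 windows. The windows were searched on both strands for TATAAA, the core of the TATA box that TBP binds, and GGGCGG, the core of the GC box bound by SP1, the factor that the study followed at another promoter. These letters do not overlap each other. The 250 bases before the start are shown for the pair of members with TATAAA there, 5′ to 3′ on the strand of the gene and with both motifs in capitals. The first is chr11:69758634-69758883 (minus strand) and the second chr8:94857200-94857449 (plus strand).
*Polr2a*: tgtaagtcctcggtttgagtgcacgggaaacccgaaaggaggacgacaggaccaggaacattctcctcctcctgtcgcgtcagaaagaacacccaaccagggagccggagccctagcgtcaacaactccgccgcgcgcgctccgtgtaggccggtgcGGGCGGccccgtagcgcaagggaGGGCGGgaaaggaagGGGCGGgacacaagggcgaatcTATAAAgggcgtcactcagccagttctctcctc
*Polr2c*: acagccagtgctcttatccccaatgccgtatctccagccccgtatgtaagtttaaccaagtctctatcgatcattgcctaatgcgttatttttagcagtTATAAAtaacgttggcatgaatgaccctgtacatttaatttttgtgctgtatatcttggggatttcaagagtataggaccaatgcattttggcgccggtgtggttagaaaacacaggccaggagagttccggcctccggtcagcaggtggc

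In *Polr2a*, TATAAA began 33 bases before the start and GGGCGG began 93, 70 and 55 bases before it. In *Polr2c*, TATAAA began 151 bases before the start and GGGCGG was absent from the window. The *Polr2a* window was the only 1 of the 9 with TATAAA on the strand of the gene beginning between 40 and 20 bases before the start. Among 32851 promoter windows of the same length, 1.99% held TATAAA there, 13.6% held TATAAA anywhere on either strand and 35.7% held GGGCGG. The latter stood before the start of 6 of the 8 members. A match of letters is not a measured binding site.

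The libraries held 10639110 to 17431284 counts each (median 15082703). In the cerebellum the KI libraries were all deeper than the WT libraries (15695641 to 17431284 against 11975768 to 15162265 counts), so values below are CPM, counts scaled to a common library size with TMM factors. Each region carried its own markers. The summed CPM of 5 cerebellar markers was 2960 to 4000 in cerebellar libraries and at most 545 elsewhere, and that of 5 striatal markers was 2320 to 4750 in striatal libraries and at most 447 elsewhere. The 5 cortical markers summed to 1160 to 1890 CPM in the prefrontal cortex and to at most 566 elsewhere. *Tbp* itself measured 52.9 ± 3.46 CPM in KI and 58.5 ± 5.23 in WT cerebellum (SD, n = 4 and 3), with log2 fold changes of -0.14, -0.12 and -0.15 in the cerebellum, striatum and prefrontal cortex, none past the threshold. Counts per gene do not show the repeat, so *Tbp* is no check of the labels.

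*Polr2a* was higher in every KI than in every WT library of the cerebellum, which held for 5.82% of all tested genes. The 4 KI libraries measured 116, 110, 115 and 134 CPM. The 3 WT libraries measured 59.6, 57.7 and 65.1 CPM. The lowest KI library thus stood well clear of the highest WT library. The means were 119 ± 10.3 and 60.8 ± 3.87 CPM (SD, n = 4 and 3), a fold of 1.96 with a 95% interval of 1.67 to 2.29 and a log2 fold change of 0.97 (SE 0.11).

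The striatum showed the same direction at lower levels. KI libraries measured 64.1, 79.6 and 67.4 CPM and WT libraries 40.5, 33.5 and 35.9 CPM. Again no KI library came down to the WT range, which held for 5.65% of all tested genes. The means of 70.4 ± 8.17 and 36.7 ± 3.57 CPM (SD, n = 3 each) gave a log2 fold change of 0.94 (SE 0.12). In the prefrontal cortex, KI libraries measured 73.3, 88.0 and 72.6 CPM and WT libraries 44.3, 37.2 and 47.1 CPM. These groups were apart as well, as for 4.38% of all tested genes, with means of 78.0 ± 8.72 and 42.9 ± 5.12 CPM (SD, n = 3 each) and a log2 fold change of 0.86 (SE 0.11).

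**Figure D1:**
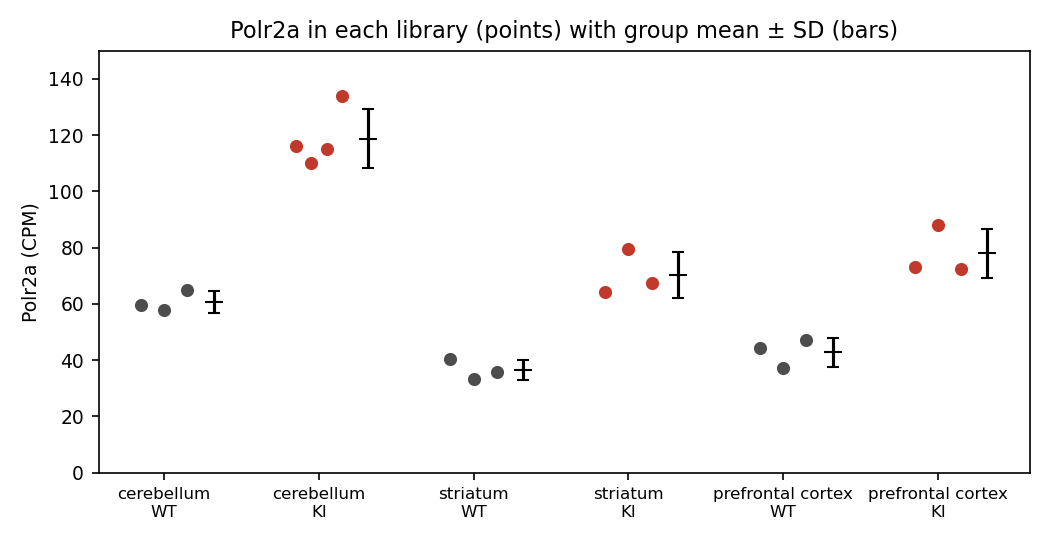
*Polr2a* in CPM (scaled counts, y axis) for every library, by region and genotype (x axis), with WT in grey and KI in red. Points are libraries and black bars are group means ± SD. In each region all KI points lie above all WT points, and the striatal KI points (64.1 to 79.6 CPM) reach down to the cerebellar WT points (57.7 to 65.1 CPM).

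Ordered by mean level, *Polr2a* ran from KI cerebellum through KI prefrontal cortex, KI striatum, WT cerebellum and WT prefrontal cortex to WT striatum. The KI cerebellum stood apart from all other groups. The neighbours KI prefrontal cortex (72.6 to 88.0 CPM) and KI striatum (64.1 to 79.6) overlapped, as did KI striatum and WT cerebellum (57.7 to 65.1). The WT prefrontal cortex (37.2 to 47.1 CPM) and WT striatum (33.5 to 40.5) overlapped too.

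*Polr2a* was among the genes called higher in KI mice in each region (edgeR quasi-likelihood test on all 19 libraries, Benjamini-Hochberg adjusted over all tested genes, threshold 0.05), a threshold passed in the higher direction by 0.517% of tested genes (cerebellum), 0.392% (striatum) and 0.0891% (prefrontal cortex). *Polr2a* was chosen on this contrast, so nothing is read from its place among those genes. In the prefrontal cortex it was not past the threshold with that region fitted alone (edgeR adjusted p = 0.216), where no gene was, or with replicate number as a block (edgeR adjusted p = 0.0852), and its log2 fold change was 0.86 in both fits. Without any 1 library of the region, the *Polr2a* log2 fold change stayed between 0.91 and 1.02 in the cerebellum, 0.84 and 1.02 in striatum and 0.76 and 0.94 in prefrontal cortex.

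The KI effect on *Polr2a* was of similar size in the 3 regions. The log2 fold change in the cerebellum exceeded that in the striatum by 0.03 (95% interval -0.30 to 0.36) and that in the prefrontal cortex by 0.10 (-0.22 to 0.43), and the striatum exceeded the prefrontal cortex by 0.08 (-0.26 to 0.42). None passed the threshold, where 0.0119%, 0.0178% and 0% of all genes did, and none of the other 9 subunits did either. Same-numbered striatal and prefrontal libraries may come from the same mice, so the regions are not independent samples. The intervals leave room for differences of up to about 0.43 on the log2 scale.

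The remaining 9 subunits did not share the higher level. Their median log2 fold change was 0.03 in the cerebellum, -0.02 in striatum and 0.05 in prefrontal cortex, beside a median over all tested genes of 0.007, -0.007 and 0.002. None of the 9 was called in any region, where 0.831%, 0.582% and 0.107% of all genes were called in either direction. By DESeq2, which called 336, 214 and 52 of all genes in these regions, none was called either. None of the 9 had an unadjusted edgeR p under 0.05 in any region. Of all tested genes, 10.1%, 8.12% and 5.93% had one in the cerebellum, striatum and prefrontal cortex. At such shares a set of 9 can easily hold no hit, so nothing is read from these counts. Taken over all 9, the outermost limits of the 95% intervals were -0.30 and 0.40 in the cerebellum and -0.39 and 0.41 in striatum. In the prefrontal cortex they were -0.30 and 0.45. The interval of each single gene was narrower, with SE from 0.069 to 0.147 in the cerebellum. Changes within a gene's own interval are not excluded.

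**Figure D2:**
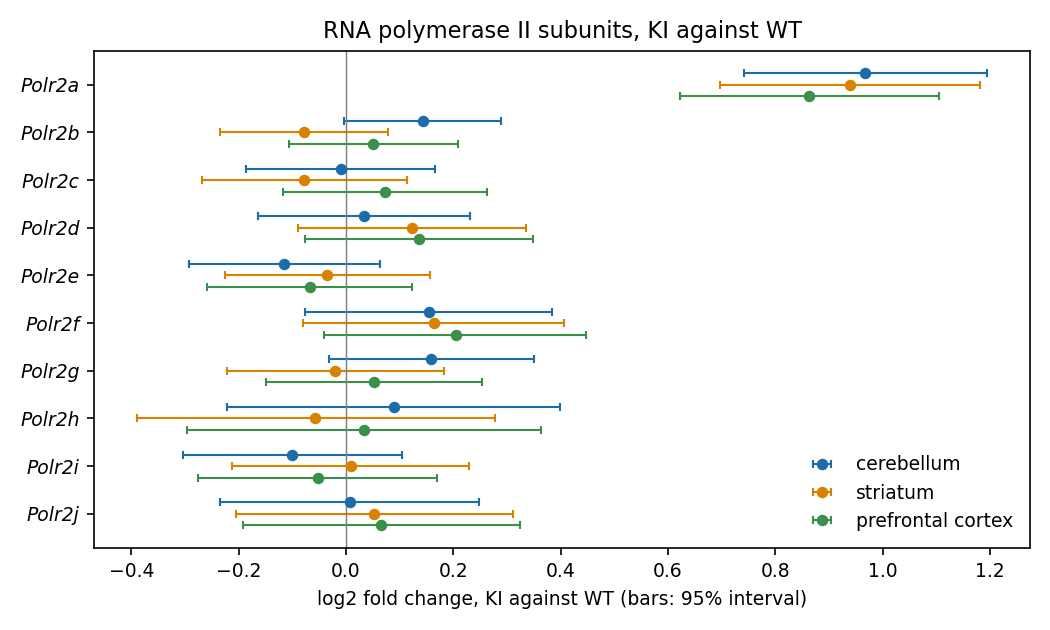
Log2 fold change of KI against WT (x axis) for each of the 10 subunits (y axis) in the cerebellum (blue), striatum (orange) and prefrontal cortex (green). Points are edgeR estimates and bars their 95% intervals. The 3 *Polr2a* estimates (0.86 to 0.97) stand apart from those of the other 9 subunits, which lie between -0.12 and 0.20.

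*Polr2b*, the partner of *Polr2a* in the catalytic core, measured 183, 173, 157 and 167 CPM in KI cerebellum and 152, 154 and 156 CPM in WT cerebellum. These groups just failed to overlap, with a log2 fold change of 0.14 (SE 0.069). With *Polr2a* it made 2 of 10 members whose cerebellar KI libraries all exceeded the WT libraries, a pattern found in 5.82% of all tested genes. In the striatum *Polr2b* ran from 112 to 120 CPM in KI and 116 to 128 CPM in WT, with a log2 fold change of -0.08. In the prefrontal cortex the KI range of 101 to 125 CPM enclosed the WT range of 108 to 110 CPM.

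The assembly heterodimer stayed near 0. *Polr2c* measured 97.4 ± 5.49 CPM in KI and 98.1 ± 8.64 in WT cerebellum, and *Polr2j* 24.8 ± 1.71 and 24.7 ± 1.66 (SD, n = 4 and 3). The stalk subunits gave log2 fold changes of 0.03, 0.12 and 0.14 for *Polr2d* and 0.16, -0.02 and 0.05 for *Polr2g* in the cerebellum, striatum and prefrontal cortex. The ranges of KI and WT libraries overlapped for these 4 genes in every region.

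Among the subunits shared with RNA polymerases I and III, *Polr2f* had the highest estimates after *Polr2a* in the striatum (0.16) and prefrontal cortex (0.20), and it gave 0.15 in the cerebellum. Its KI and WT libraries overlapped in all 3 regions, for example 34.4 to 44.4 against 33.0 to 34.5 CPM in the prefrontal cortex. *Polr2e* had the lowest estimate of the set in the cerebellum (-0.12) and prefrontal cortex (-0.07). *Polr2h* lay between -0.06 and 0.09 and *Polr2i*, which is specific to RNA polymerase II, between -0.10 and 0.01. The counts of *Polr2c*, *Polr2f*, *Polr2h*, *Polr2i* and *Polr2j* come from genes that overlap a gene on the opposite strand (*Dok4*, *1700088E04Rik*, *Clcn2*, *Tbcb* and *Lrwd1*), and *Polr2b* overlaps *Igfbp7*. Use of strand in the counting is not given in the sources used here, so reads in those overlaps cannot be assigned with certainty.

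Set against the other subunits within each library, *Polr2a* shifted by nearly as much as in CPM. The log2 ratio of *Polr2a* CPM to the geometric mean CPM of the other 9 was 1.31, 1.16, 1.26 and 1.64 in KI cerebellum and 0.45, 0.26 and 0.55 in WT cerebellum. In the striatum it was 0.64, 0.77 and 0.56 in KI and -0.09, -0.39 and -0.36 in WT. In the prefrontal cortex it was 0.71, 0.80 and 0.70 in KI and -0.05, -0.30 and 0.13 in WT. The KI libraries lay above the WT libraries throughout, with gaps between the nearest libraries of 0.61, 0.64 and 0.57. *Polr2a* was chosen with its higher KI counts known, so this separation describes those same counts and is no further test. The mean ratio differed by 0.93 (SE 0.14), 0.93 (SE 0.11) and 0.81 (SE 0.13) in the cerebellum, striatum and prefrontal cortex. *Polr2a* made up 10.4% of the summed CPM of the 10 members in WT and 17.9% in KI cerebellum, 6.85% and 12.5% in striatum and 7.94% and 13.1% in prefrontal cortex.

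**Figure D3:**
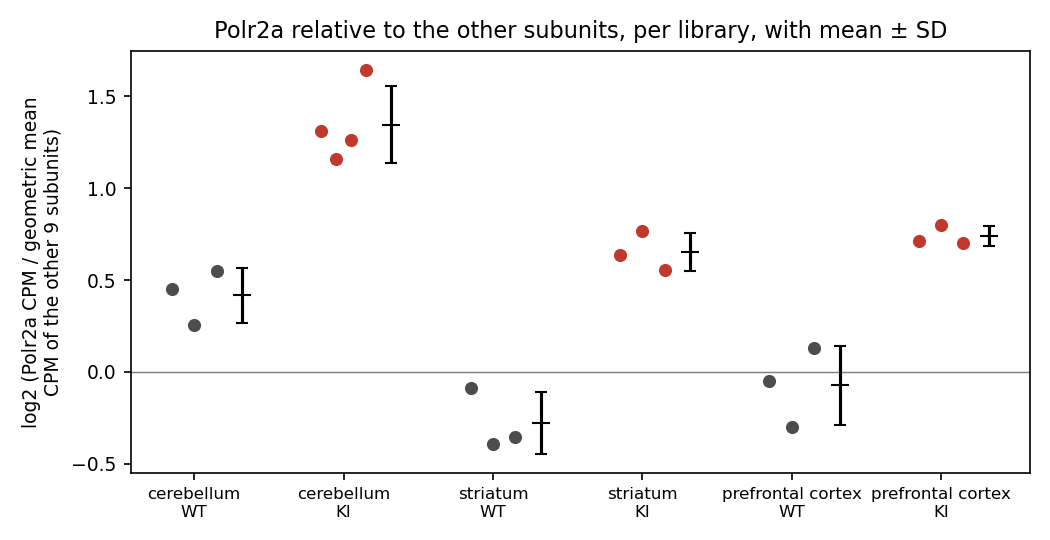
Log2 ratio of *Polr2a* CPM to the geometric mean CPM of the other 9 subunits (y axis) in every library, by region and genotype (x axis), WT in grey and KI in red, with black bars for group means ± SD. KI libraries lie above WT libraries in each region, with means of 1.34 and 0.42 in the cerebellum, 0.65 and -0.28 in striatum and 0.74 and -0.07 in prefrontal cortex.

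In WT mice *Polr2a* was higher in the cerebellum than in the other regions. The choice of members did not compare regions, but it did use these WT libraries, as the controls of each region. The log2 difference was 0.73 (SE 0.12, adjusted p = 4.23e-05, edgeR) against the striatum and 0.50 (SE 0.11, adjusted p = 0.00137, edgeR) against the prefrontal cortex. All 3 cerebellar libraries (57.7 to 65.1 CPM) exceeded all striatal (33.5 to 40.5) and prefrontal libraries (37.2 to 47.1), and both calls held under every alternative. The striatum and prefrontal cortex differed by -0.22 (95% interval -0.47 to 0.02, edgeR adjusted p = 0.157), which did not pass the threshold. Between WT regions 56.5% (cerebellum and striatum), 52.0% (cerebellum and prefrontal cortex) and 30.5% (striatum and prefrontal cortex) of all tested genes were called.

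Of the other 9 subunits, 5 were called between WT cerebellum and striatum, 3 higher and 2 lower in the cerebellum, and 6 between WT cerebellum and prefrontal cortex, 4 higher and 2 lower. Among all genes, 27.8% were higher and 28.7% lower in cerebellum against striatum, and 25.1% and 26.9% against prefrontal cortex. *Polr2b* was higher in the cerebellum by 0.33 (SE 0.074) and 0.50 (SE 0.074) against the striatum and prefrontal cortex, with libraries at 152, 154 and 156 CPM against 116, 124 and 128 and 109, 110 and 108 CPM. *Polr2g*, a stalk subunit, was lower by 0.42 (SE 0.096) and 0.46 (SE 0.096), with 55.1, 66.7 and 58.3 CPM in the cerebellum, 76.7, 81.2 and 83.9 in the striatum and 89.8, 84.5 and 73.3 in the prefrontal cortex. Its stalk partner *Polr2d* was higher in the cerebellum than in the prefrontal cortex by 0.33 (SE 0.10), a call lost without WT prefrontal cortex library 2 (0.26). The members of the stalk thus differed in opposite directions between these regions.

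*Polr2c* was higher in the cerebellum than in the striatum by 0.39 (SE 0.090) and than in the prefrontal cortex by 0.26 (SE 0.090), the latter lost without WT cerebellum library 2 (0.19), WT prefrontal cortex library 1 (0.26) or 3 (0.20). *Polr2i* was higher by 0.27 (SE 0.10) against the striatum and 0.34 (SE 0.10) against the prefrontal cortex. The first of these was lost under both other filters on low counts (0.24 and 0.28) and when any of 5 of the 6 libraries was left out, the exception being WT cerebellum library 3. The second was lost without WT cerebellum library 2 (0.28). *Polr2f* was lower by 0.35 (SE 0.12) and 0.33 (SE 0.12), and both calls were lost with an offset for transcript length and GC content, which moved the values to -0.17 and -0.09. Without WT cerebellum library 3 both were lost as well (-0.28 and -0.26), the first without WT striatum library 2 (-0.32), and the second without WT prefrontal cortex library 1 (-0.33) or 2 (-0.31) and with no filter on low counts (-0.31). None of the 9 was called between WT striatum and prefrontal cortex by edgeR or DESeq2, beside 30.5% of all tested genes by edgeR. In this comparison 2 of the 9 had an unadjusted edgeR p under 0.05, beside 40.2% of all tested genes. Without WT striatum library 3, *Polr2h* was called there, with a log2 difference of -0.54 (SE 0.16) in place of -0.37 (SE 0.16).

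Relative to the other 9 subunits, *Polr2a* in WT mice had a mean log2 ratio of 0.42 in the cerebellum, -0.28 in striatum and -0.07 in prefrontal cortex. Two-sided exact permutation tests gave p = 0.1 for the cerebellum against either other region, the smallest p that 3 against 3 libraries allow, and p = 0.2 for the striatum against the prefrontal cortex (0.15, 0.15 and 0.2 adjusted over the 3 tests). These tests took libraries as independent, although same-numbered striatal and prefrontal libraries may come from the same mice.

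Per kilobase of transcript, *Polr2a* was the lowest of the 10 subunits in WT mice in each region. With the longest coding transcript as length (6740 bases for *Polr2a*), its level was 9.02 ± 0.574 CPM per kb in the cerebellum, 5.44 ± 0.529 in striatum and 6.36 ± 0.760 in prefrontal cortex (SD, n = 3 each). The level of its core partner *Polr2b* was 37.1 ± 0.473, 29.6 ± 1.47 and 26.3 ± 0.275 CPM per kb. *Polr2e* and *Polr2g* held the top places in every WT region, with 73.8 and 67.4 CPM per kb in the cerebellum. With the union of exons as length *Polr2b* (33.0 CPM per kb) came before *Polr2e* (31.7) in WT cerebellum, behind *Polr2g* (48.1). *Polr2a* also remained the lowest in the KI groups, at 17.6 ± 1.53 CPM per kb in the cerebellum (SD, n = 4), except that with the union of exons as length it was 8th of 10 in KI cerebellum. The *Polr2a* transcript is the longest of the 10, and read coverage along transcripts was not measured here.

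**Figure D4:**
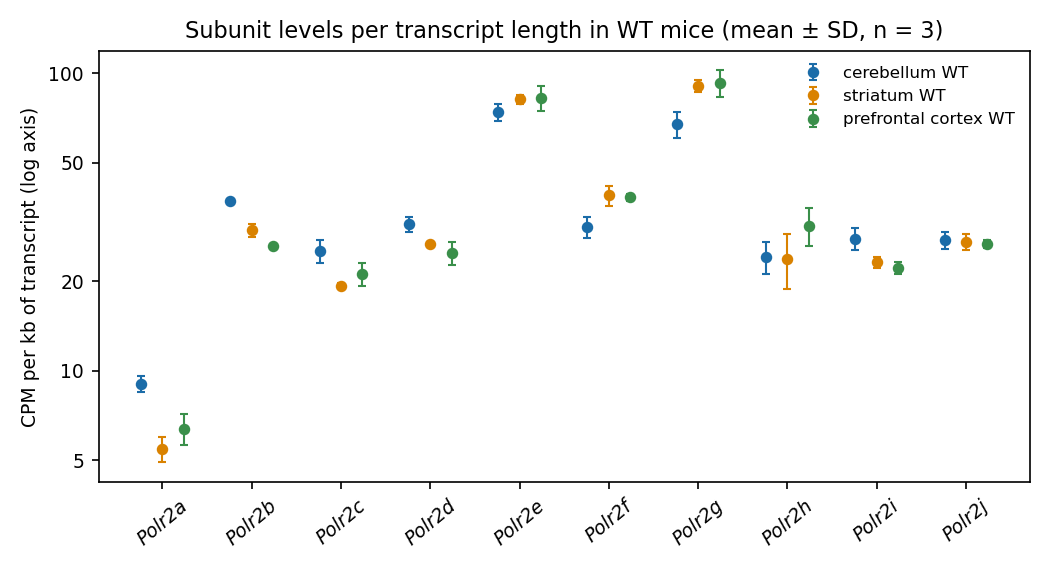
Level of each subunit (x axis) in CPM per kb of its longest coding transcript (y axis, log axis) in WT cerebellum (blue), striatum (orange) and prefrontal cortex (green). Points are means of 3 libraries and bars ± SD. *Polr2a* lies at 5.44 to 9.02 CPM per kb, below every other subunit, and *Polr2e* and *Polr2g* lie highest.

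None of the genes nearest to *Polr2a* on chromosome 11 was called with it. The nearest tested genes were *Tnfsf12*, *Tnfsf13* and *Tnfsf13os* on one side and *Zbtb4*, *Chrnb1* and *Fgf11* on the other. Of these 6, 0 were called in any region by edgeR or DESeq2. Among all tested genes, edgeR called 0.831%, 0.582% and 0.107% in the cerebellum, striatum and prefrontal cortex. An unadjusted edgeR p under 0.05 was found for 2, 0 and 1 of the 6. It was found for 10.1%, 8.12% and 5.93% of all tested genes, in the same order of regions. With shares of called genes this low, the lack of a call among 6 genes is no result about them. *Zbtb4*, whose start lies 7.3 kb from that of *Polr2a* and which has a comparable count (51.6 CPM on average), gave log2 fold changes of -0.15 (SE 0.096), -0.05 (SE 0.10) and 0.04 (SE 0.10) in the cerebellum, striatum and prefrontal cortex. Within 500 kb, 54 other genes were tested. Their median log2 fold changes were -0.04, -0.01 and 0.004. A single gene was called, *Cd68* in the cerebellum (1.17), where 0.831% of all tested genes were called. It encodes a lysosomal protein of macrophages and microglia and is named after its values were seen.

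**Figure D5:**
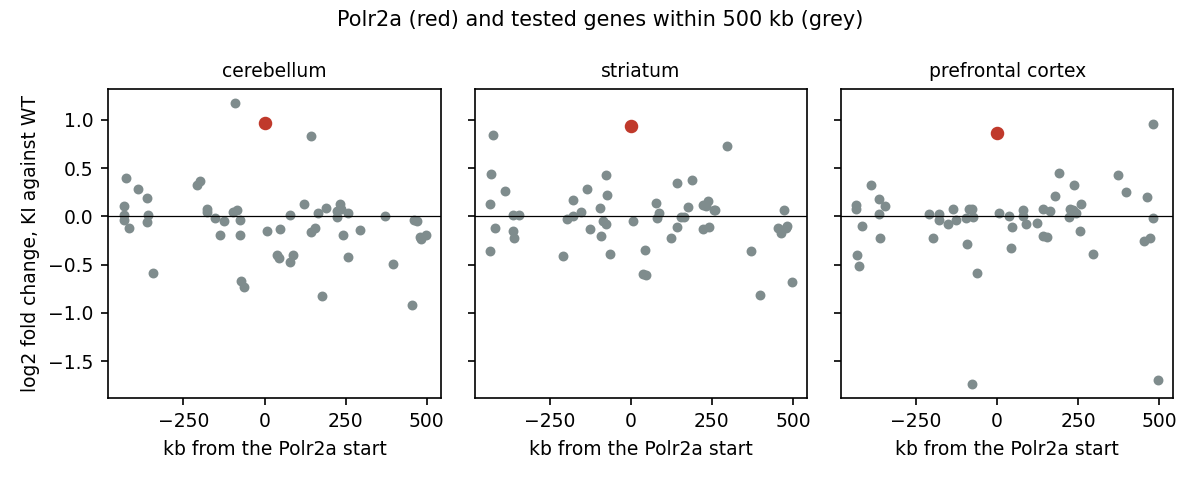
Log2 fold change of KI against WT (y axis) for *Polr2a* (red) and the 54 other tested genes within 500 kb (grey) against the distance of their starts from that of *Polr2a* in kb (x axis), in 1 panel for each region. The *Polr2a* point lies at 0.97, 0.94 and 0.86, while the neighbours scatter around 0, their medians being -0.04, -0.01 and 0.004. The lowest point in the prefrontal cortex is *Tnfsf13os* (-1.73), a gene with 0.434 CPM on average.

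Genes with transcripts of similar length were centred near 0. Among 1978 tested genes whose longest coding transcript was within 0.8 to 1.25 times that of *Polr2a*, the median log2 fold change was -0.001 in the cerebellum, -0.02 in striatum and 0.02 in prefrontal cortex. Of these, 0.556%, 0.556% and 0.0506% were called, beside 0.831%, 0.582% and 0.107% of all tested genes. A log2 fold change at least that of *Polr2a* was found in 45, 22 and 15 of them (2.28%, 1.11% and 0.758%), beside 3.34%, 2.55% and 2.05% of all other tested genes. *Polr2a* was chosen on this contrast, so these shares are a description and nothing is read from them. Over the alternative fits that left out no library, the *Polr2a* log2 fold change was 0.91 to 0.97 in the cerebellum. It was 0.89 to 0.97 in striatum and 0.82 to 0.90 in prefrontal cortex. These fits included an offset for transcript length and GC content. Beyond that offset, a part of transcript length in its level was not tested.

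Genes that act with RNA polymerase II were counted in lists chosen with earlier results known. The last subunits, *Polr2k* and *Polr2l*, and *Polr2m*, which encodes a protein bound to the polymerase, gave no call in any region, with *Polr2m* at 0.17 (SE 0.067), 0.10 (SE 0.072) and 0.004 (SE 0.072). None of the 20 subunits of RNA polymerases I and III and of the mitochondrial polymerase was called in any region, with medians of -0.007, 0.05 and 0.03. Of those, *Polr1b*, the second-largest subunit of RNA polymerase I, gave -0.53 (SE 0.17) in the cerebellum.

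Among 12 kinases and cyclins that phosphorylate the C-terminal domain or belong to the Mediator kinase module, no gene was called and the medians were -0.10, -0.06 and 0.006. *Cdk19*, a Mediator kinase, gave -0.38 (SE 0.13) in the striatum. Among 12 phosphatases and binders of that domain the medians were 0.02, 0.04 and 0.06, and *Ctdp1*, which removes phosphates from the domain, gave 0.26 (SE 0.094) in the prefrontal cortex. Neither list held a call.

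The 14 genes for assembly and nuclear import of the polymerase, the 20 for pausing and elongation and the 11 linked to turnover of the largest subunit also held no call. Their medians lay between -0.06 and 0.08. *Nelfb*, a subunit of the pausing factor NELF, gave 0.37 (SE 0.092) in the striatum. *Supt16*, part of the histone chaperone FACT, gave 0.63 (SE 0.26) and 0.68 (SE 0.26) in the striatum and prefrontal cortex and -0.15 (SE 0.24) in the cerebellum. Over these 7 lists, 0 of 92 genes passed the threshold in any region by edgeR, and 5, 4 and 4 had an unadjusted p under 0.05 in the cerebellum, striatum and prefrontal cortex. The shares over all tested genes were 0.831%, 0.582% and 0.107% called, at which under 1 call would fall in a list of this size, and 10.1%, 8.12% and 5.93% at an unadjusted p under 0.05. DESeq2 called 1 of them, *Nelfb* in the striatum.

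Over the 19 libraries, with each region centred on its mean, the 5 genes most like *Polr2a* in log2 CPM were *Ifi206* (r = 0.944), *Rtp4* (0.944), *Gbp7* (0.941), *Gbp3* (0.940) and *Irf7* (0.939). The points share the genotype difference in each region, so these values describe libraries that are high in KI and low in WT. *Irf7*, which drives type I interferon genes, measured 24.4 ± 5.29 CPM in KI and 2.69 ± 1.47 in WT cerebellum (SD, n = 4 and 3).

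Centred on the 6 group means instead, which removes that difference, *Irf7* had an r of 0.138 with *Polr2a*. The 5 most like genes were then *Trim33* (0.881), *Ocel1* (0.836), *Vps37a* (0.835), *Slc18a1* (0.833) and *Auts2* (0.823). Their log2 fold changes in KI mice were unlike that of *Polr2a*, for example -0.10, 0.03 and -0.02 for *Trim33*. Within groups, pairs among the other 9 subunits had r between -0.329 and 0.889 (median 0.469 over 36 pairs), and pairs of *Polr2a* with them had r between -0.183 and 0.39 (median -0.089 over 9 pairs). These correlations are descriptions over 19 libraries that share scaling and depth.

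Markers of other cell types differed between the groups in part. The summed CPM of 8 microglial markers, all detected, was 174 to 233 in KI and 125 to 127 in WT cerebellum, but 564 to 611 and 551 to 639 in striatum and 463 to 536 and 503 to 558 in prefrontal cortex. Cerebellar markers were lower in KI cerebellum (2960 to 3450 against 3740 to 4000) and striatal markers lower in KI striatum (2320 to 3340 against 4100 to 4750). Blood markers were lower in KI prefrontal cortex (236 to 262 against 275 to 317). The 5 choroid plexus markers varied widely among libraries, from 19.8 to 4800 in KI and 27.7 to 1920 in WT cerebellum and from 4160 to 7090 in KI and 1510 to 8670 in WT striatum. Endothelial, astrocyte and oligodendrocyte sums overlapped in every region. The part of these differences in the *Polr2a* level was not tested. In whole tissue, a change in the number of cells of a type and a change of RNA per cell cannot be told apart.

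The labels give no sex, and *Xist* and Y-linked counts placed both classes in every group. Each class held only 1 or 2 libraries of a genotype in a region. In the cerebellum, *Polr2a* in libraries with *Xist* measured 115 to 116 CPM (2 KI) against 57.7 to 59.6 CPM (2 WT). In those with Y-linked counts it measured 110 to 134 CPM (2 KI) against 65.1 CPM (1 WT). All KI libraries exceeded all WT libraries in each region, so any split by class had to keep that order. The order within classes is therefore no separate check for sex. With a sex covariate in the fit, the *Polr2a* log2 fold changes were 0.94, 0.89 and 0.82 in the cerebellum, striatum and prefrontal cortex.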

How the data were processed

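Messenger RNA of 19 libraries from 3 brain regions was measured. Libraries were made from 10 ng of RNA with the SMART-Seq v4 and Nextera XT kits. The authors deposited raw read counts per Ensembl gene; their processing notes name bcl2fastq 2.17.1.14, STAR 2.5.2b, HTSeq, DESeq2 1.10.1 and the build GRCm38.p3, and the methods name Cufflinks and Cuffdiff. A second deposited table of the same counts divided by size factors was not used here.

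Counts were kept for 16841 of 41128 genes by filterByExpr, scaled by TMM and fitted with edgeR 4.0.16 in R 4.3.3 (glmQLFit and glmQLFTest, 1 mean for each of the 6 groups of region and genotype, 13 residual degrees of freedom). P-values were Benjamini-Hochberg adjusted over all tested genes, with a threshold of 0.05. Intervals of fold changes are 95% intervals of that fit. CPM are TMM-scaled, and log2 CPM for likeness used a prior count of 2. DESeq2 1.42.0, other scalings and filters, an offset for length and GC content (known for 99.4% of tested genes), a sex covariate, each region alone, blocks of replicate number and leaving out each library were the alternatives. Functions were tested on simulated counts. Counting error was not measured on its own, and it weighs more for members with low counts. Counts per library ran from 451 to 2215 for *Polr2a* and from 172 to 412 for *Polr2i*. Reads carry no molecular identifiers.

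Replicate libraries differed by more than sampling noise (chi-square per degree of freedom 4.95 to 30.0). Each is taken as 1 mouse, and where libraries are not separate mice p-values measure their spread only. Same-numbered striatal and prefrontal libraries of a genotype deviated together (r = 0.233 to 0.368). They agreed in sex class in 6 of 6 pairs, against 3 of 6 for the cerebellum with either. The same number may thus mark the same mouse in the striatum and prefrontal cortex, which the labels do not state. Same-numbered KI and WT libraries of a region showed no such shared deviation, which does not settle whether they were paired.

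The members, lists and named genes were chosen with earlier results of these data known. Named genes are the members, at most 4 genes of each list by smallest adjusted p, the 3 nearest tested genes on each side of *Polr2a*, the 5 genes most like *Polr2a* by each centring, and *Tbp*. A further comparison list of genes is not reported here. Gene names and positions came from GENCODE M21 (GRCm38), and promoter sequences from RefSeq (GRCm38.p6). Windows printed hold at most 4 bases of an annotated exon.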

Additional observations from a re-analysis of the deposited data

How the results depend on the processing

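The *Polr2a* log2 fold change kept its direction in all 3 regions under every alternative, and none of the other 9 members was called for KI against WT under any. *Polr2a* was chosen on this contrast, and all its KI libraries exceeded all WT libraries in each region. Leaving out a library could therefore hardly turn its direction, so the kept direction is no further test. With replicate number as a block within regions, *Polr2a* had log2 fold changes of 0.91, 0.94 and 0.86, and in the prefrontal cortex its adjusted p by edgeR rose to 0.0852 (0.216 with that region fitted alone). Same-numbered KI and WT libraries of a region showed no shared deviation (r = -0.245 to 0.172), and the labels give no pairing. The median of the other 9 members (0.03, -0.02 and 0.05 in the cerebellum, striatum and prefrontal cortex) turned sign in each region without some single library, running from -0.008 to 0.077, -0.053 to 0.041 and -0.027 to 0.117, and kept its sign under the other alternatives. The number of genes called moved more. For KI against WT in the cerebellum, striatum and prefrontal cortex (140, 98 and 18), DESeq2 gave 336, 214 and 52, the fit of each region alone gave 46 in striatum and 0 in prefrontal cortex, and the block gave 9 in the prefrontal cortex. Leaving out 1 library gave 73 to 151, 36 to 121 and 5 to 16. Counts fell by over 1.5 times without WT cerebellum library 2 or 3 (73 and 78), without KI striatum library 1 or 3 (59 and 36) or WT striatum library 1, 2 or 3 (56, 36 and 56), and without KI prefrontal cortex library 3 (10) or WT prefrontal cortex library 1 or 2 (6 and 5). For the differences of the KI effect between cerebellum and striatum, cerebellum and prefrontal cortex, and striatum and prefrontal cortex (2, 3 and 0 called), DESeq2 gave 50, 32 and 12, the block gave 8 and 1 for the first pair of comparisons, and the length and GC offset and the sex covariate each gave 1 for the cerebellum against the striatum. Leaving out 1 library gave 1 to 6, 1 to 4 and 0 to 1. The *Polr2a* difference between cerebellum and striatum, near 0, turned to -0.002 with the length and GC offset and -0.03 with the block, and ran from -0.052 to 0.13 without 1 library; that between striatum and prefrontal cortex ran from -0.023 to 0.18. The cause of these moves was not tested. A block of genotype and number over the striatal and prefrontal libraries, chosen after seeing the data, changed no call of a member, and neither did one across all regions for the WT comparisons. The ratio of *Polr2a* to the other 9 differed by 0.83, 0.93 and 0.81 within replicate numbers. In the striatum and prefrontal cortex that mean equals the main value by construction, and in the cerebellum it only leaves out KI library 4. Against their summed CPM the ratio differed by 0.91, 0.96 and 0.82. Against *Polr2b*, an alternative chosen after seeing the data, it differed by 0.82, 1.02 and 0.82. Precision for KI against WT was lowest for *Polr2h*, *Polr2j* and *Polr2f*, whose intervals were on average the widest of the members.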
